A study of Homo sapiens with 2 samples.

Results

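These results concern MKI67 and 9 further genes whose products act in mitosis, as RNAs crosslinked to the RNA-binding protein Musashi-2 (MSI2). The members were fixed by Ensembl gene ID, namely MKI67 (ENSG00000148773), TOP2A (ENSG00000131747), CENPF (ENSG00000117724), CENPE (ENSG00000138778), ASPM (ENSG00000066279), TPX2 (ENSG00000088325), KIF11 (ENSG00000138160), ANLN (ENSG00000011426), NUSAP1 (ENSG00000137804) and CCNB1 (ENSG00000134057), and every peak listed under those IDs was taken. They are 10 of the 8801 gene IDs with a peak in either library, and they held 76 of 25920 peaks in replicate 1 and 56 of 25243 peaks in replicate 2. MKI67 was chosen by a measured value, its number of peaks found in both libraries, which is among the highest, so that count is a description and not a finding. The data are CLIP-seq peak lists from NB4, a cell line established from a human acute promyelocytic leukaemia, with 1 list for each of 2 replicates of 1 group. The labels name no treatment or genetic change. Both libraries were made from cells crosslinked with ultraviolet light at 400 mJ per square centimetre and precipitated with an antibody against MSI2. In this assay the RNA fragments held by the crosslinked protein are recovered and sequenced, and places where fragments pile up are called as peaks. Libraries without MSI2, with another antibody or from input RNA were not analysed here, and RNA levels were not measured, so MSI2 binding, repeatable background and an abundant transcript cannot be told apart at any site below.

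Musashi proteins bind short single-stranded RNA sites and are known for acting on the stability and translation of the messenger RNAs they hold, often through the 3' untranslated region. Mitosis genes are transcribed late in the cell cycle, and many of their messages are made, used and removed within each division. MKI67 encodes Ki-67, the proliferation marker that coats mitotic chromosomes and keeps them apart. Its protein carries a long array of tandem repeats, encoded in an unusually long exon. No hg19 genome or exon annotation was used here, so no peak is assigned to an exon, an intron or an untranslated region, and no peak sequence is shown.

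Each peak carries a whole number at the end of its name, called its tally here. No peak had a tally under 3. It is taken to behave like a number of fragments, although no header or label explains it. The tallies of each list summed to 155598 and 133644, which measures what was called and not sequencing depth. A peak was called shared when it overlapped a same-strand peak of the other library by at least 1 nt. The reproducible peaks are those of replicate 1 that were shared. The labels do not say that the replicates came from separate cultures, so differences between them may be technical. No member interval was listed under another gene ID as well, and 0 member peaks met a peak of another gene. The symbols of all 10 members were found in RefSeq, each on the chromosome that holds the peaks of its ID. Markers of promyelocytes and other cells could not be matched to the lists, so the labelled cell type was not checked.

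As a set, the peaks of the mitosis genes were shared about as often as peaks in general in replicate 1, and more often in replicate 2. MKI67 had the most shared peaks of the members. In replicate 1, 27 of the 76 member peaks were shared, or 35.5% (95% Wilson interval 25.7% to 46.7%), beside 35.7% of all peaks in that list. In replicate 2, 27 of 56 were shared, or 48.2% (35.7% to 61.0%), beside 37.3% of all peaks. The replicate 1 share was thus at the level of the list, and the lower bound in replicate 2 lay under the level of the list. MKI67 supplied 13 of the 27 reproducible peaks. The other 9 genes had 14 shared among 55 peaks in replicate 1, or 25.5% (15.8% to 38.3%), and 14 among 36 in replicate 2, or 38.9% (24.8% to 55.1%). The intervals cover counting error only, because peaks of 1 gene are not independent. The median tally of the member peaks was 4 in each library, the same as the median of all peaks in each list. At the level of genes, 9 of the 10 members had peaks in both libraries, beside 63.1% of the gene IDs seen in either, and 8 of the 10 members had a reproducible peak, beside 55.2% of all gene IDs with peaks in replicate 1. The exceptions were CENPE and TPX2. These shares over all gene IDs were not matched for the number of peaks per gene. MKI67 was also chosen for its shared peaks, so the comparison is a description only. Peaks were more numerous in replicate 1 for 8 members, equal in number for ASPM and more numerous in replicate 2 for CCNB1. The same counts over all gene IDs were not computed, so 8 of 10 cannot be called unusual. Replicate 1 also listed more peaks in total, 25920 against 25243.

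**Figure D1:**
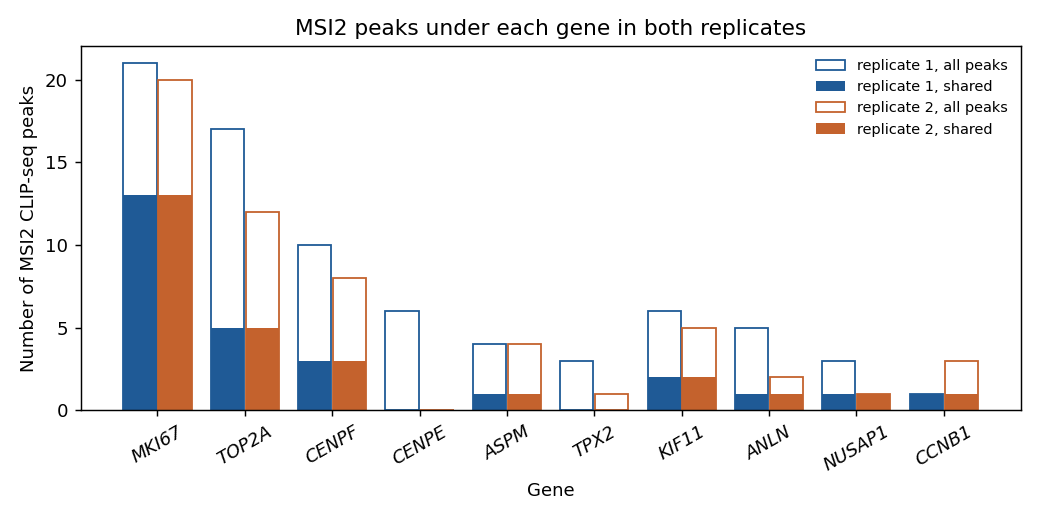
Number of MSI2 CLIP-seq peaks under each of the 10 genes (y axis) in replicate 1 (blue) and replicate 2 (orange), with open bars for all peaks and filled bars for peaks overlapped in the other library. MKI67 had 21 and 20 peaks with 13 shared, while CENPE had 6 peaks in replicate 1 and 0 in replicate 2.

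Peaks with high tallies are found again more often than peaks with low ones, so each gene's number of shared peaks was set beside the number it would have had if its peaks were shared as often as other genes' peaks of the same tally. Over all 10 members in replicate 1 the observed number was 27 and the number at equal tally was 27.0. In replicate 2 these were 27 and 22.0. MKI67 had 13 shared peaks in each library, beside 8.5 at equal tally in replicate 1 and 8.9 in replicate 2. The other 9 genes together had 14, beside 18.5 in replicate 1 and 13.2 in replicate 2. The set as a whole was therefore at the level of other peaks of its strength in replicate 1 and above it in replicate 2. MKI67 was above that level in both, and its companions were below it in replicate 1 and near it in replicate 2. These numbers are descriptions, since MKI67 was chosen for its shared peaks and the set with these data known.

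**Figure D2:**
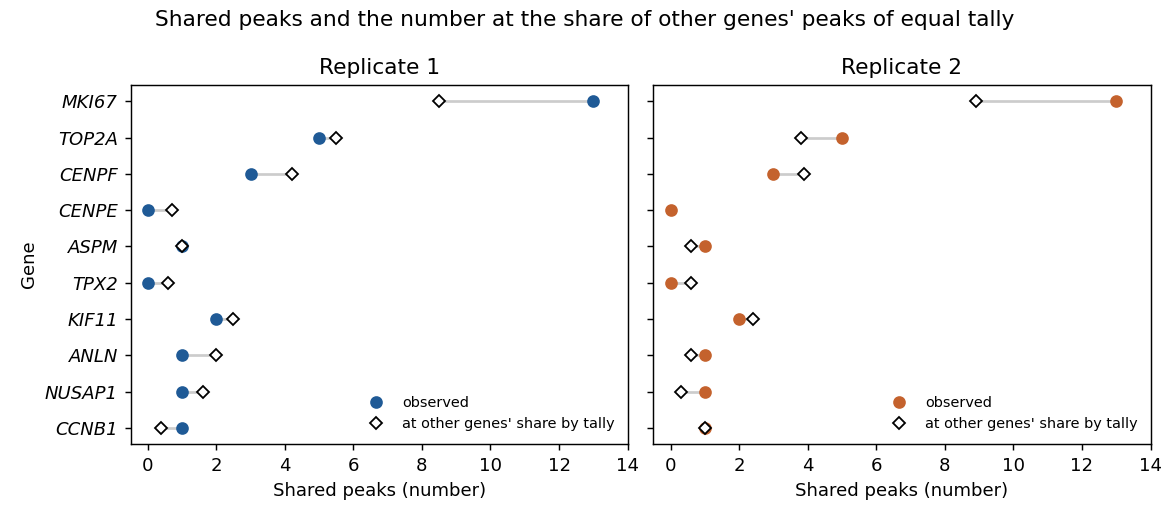
Observed number of shared peaks per gene (filled circles) and the number at the share found among other genes' peaks of equal tally (open diamonds), for replicate 1 on the left and replicate 2 on the right. MKI67 shows the widest gap, 13 against 8.5 and 8.9, and CENPE has no diamond in replicate 2, where it had no peak.

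MKI67 (ENSG00000148773.8) had 21 peaks in replicate 1 and 20 in replicate 2, on the minus strand of chromosome 10 between hg19 positions 129895060 and 129923944. Its 13 reproducible peaks place it behind 9 gene IDs with more, and 4 gene IDs including MKI67 had exactly that number. Only 57 gene IDs, or 0.786% of those with replicate 1 peaks, had 10 or more. The peaks did not fill the span evenly. On the 3' side, 39 of the 41 peaks of both libraries lay within 15.3 kb, and a gap of 10.6 kb without any peak separated them from the remaining 2. Those 2 peaks, at 129920956 to 129920989 and 129923925 to 129923944, were listed in replicate 1 alone, with tallies of 4 and 3. All 13 reproducible peaks lay on the 3' side of the gap, spread over 14.8 kb.

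The strongest MKI67 site in replicate 1 lay close to the 3' end of the span, and the libraries differed most there. The peak at 129895792 to 129895863 had a tally of 25 in replicate 1 and 6 in replicate 2, where it ran from 129895806 to 129895847. This ratio of 4.17 was reached or exceeded in only 0.4% of all 9246 reproducible pairs, although the centres of the inner intervals lay 2 nt apart. The neighbouring site at 129895485 to 129895531 had tallies of 11 and 7, and its inner centres lay 1 nt apart. Replicate 1 listed a further peak beside each of these sites, at 129895444 to 129895466 with a tally of 6 and at 129895752 to 129895763 with a tally of 5, and neither was overlapped in replicate 2. The next reproducible site toward the 5' end, at 129897435 to 129897488, had tallies of 7 and 4. At these 3 sites nearest the 3' end the tally was thus higher in replicate 1 each time. Among all reproducible pairs, replicate 1 had the higher tally in 55.3%.

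The middle of the MKI67 cluster gave nearly equal tallies in the libraries. The site at 129901183 to 129901206 had a tally of 4 in each. The site at 129902973 to 129903037 had tallies of 8 and 9, and the one at 129903301 to 129903397 had 12 in each. The latter was the strongest MKI67 peak of replicate 2, where the site near the 3' end had only 6. Farther toward the 5' end, the site at 129904414 to 129904449 had tallies of 4 and 5, and the site at 129904785 to 129904843 had 7 in each. The site at 129906607 to 129906657 had 6 in each, and the site at 129907568 to 129907606 had 5 and 7. At no site of this middle stretch did the tallies differ by more than 2.

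The 3 reproducible sites at the 5' end of the cluster each had a tally of 3 in replicate 2, the lowest among the shared MKI67 peaks. The sites at 129908790 to 129908794 and at 129909916 to 129909923 had a tally of 3 in each library, the lowest value that a list contains. The site at 129910267 to 129910310 had tallies of 7 and 3. With a tally of 3, 11.9% of all replicate 1 peaks and 15.5% of all replicate 2 peaks were shared. Of the MKI67 peaks with this tally, 2 of 6 were shared in replicate 1 and 3 of 5 in replicate 2. These are few peaks of a gene chosen for its shared peaks, so the counts are a description.

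**Figure D3:**
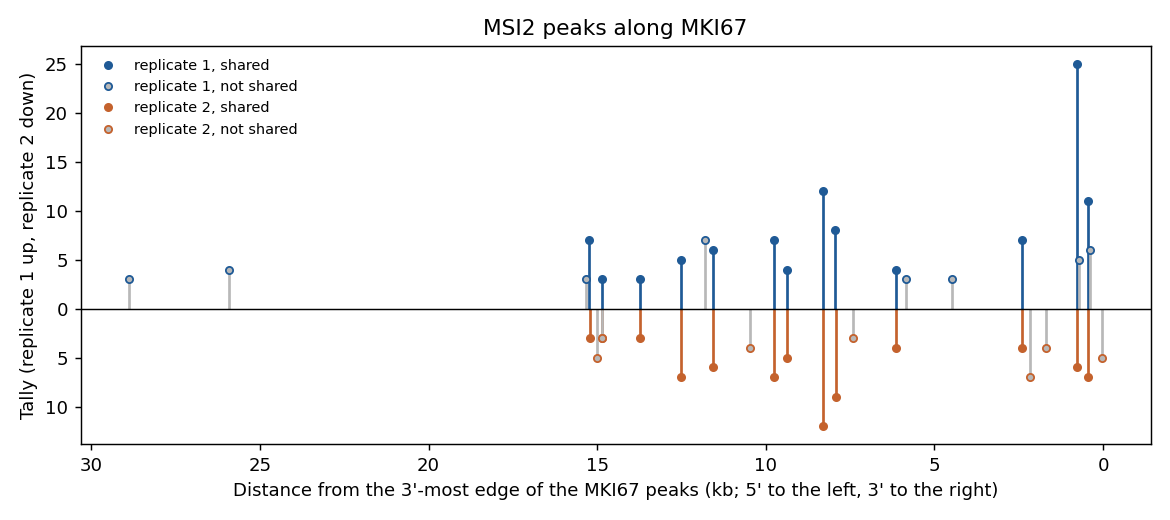
MSI2 peaks along MKI67, by distance in kb from the 3'-most edge of its peaks (x axis, 3' to the right) and by tally (y axis, replicate 1 upward and replicate 2 downward), with filled colour for shared peaks and grey for the others. The shared peaks form a cluster of 14.8 kb, the tally of 25 near the 3' end has a partner of only 6, and 2 unshared peaks lie alone beyond a gap of 10.6 kb.

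The MKI67 sites had nearly the same centres in both libraries. The centres of the inner intervals lay within 10 nt of each other in 12 of the 13 pairs, with a median distance of 4 nt, beside a median of 7 nt and 66.9% within 10 nt over all 9246 pairs. The largest MKI67 distance, 20 nt, was at the site with tallies of 7 and 4. In the other 9 members, 5 of 14 pairs lay within 10 nt, or 35.7%, with a median distance of 12.5 nt. MKI67 was chosen for its shared peaks, so the closeness of its centres is a description. Of the 12 distances between neighbouring MKI67 sites, 4 were under 400 nt. In replicate 1 these were 324, 366, 379 and 366 nt, from the 3' end toward the 5' end, and in replicate 2 the same neighbours lay 321, 366, 369 and 360 nt apart. The median distance between neighbours was 1095 nt in replicate 1. Whether neighbouring sites fall at like places of the tandem repeats, and whether fragments from 1 repeat could be placed on another, was not tested, because no sequence was used.

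The unshared MKI67 peaks were weaker and many lay inside the same cluster. Their median tally was 3.5 in replicate 1 and 4 in replicate 2, with a highest tally of 7 in each, against medians of 7 and 6 for the shared ones. In replicate 1, 3 of the 8 unshared peaks lay within 100 nt of a replicate 2 peak, and in replicate 2, 1 of 7 lay within 100 nt of a replicate 1 peak. Over all unshared peaks these shares were 12.7% and 12.9%, not matched for how densely a gene's peaks lie. Shared peaks carried 75.0% of the MKI67 tally in replicate 1 and 71.0% in replicate 2. The same share over all peaks was not computed. Over all reproducible pairs the median tallies were also 7 and 6, beside 4 over each list.

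By counts of peaks in each library and of reproducible peaks, the gene ID most like MKI67 was ENSG00000122566.16 on chromosome 7, with 21, 21 and 14. Next came ENSG00000136381.8 on chromosome 15 with 21, 16 and 13, ENSG00000251562.3 on chromosome 11 with 19, 19 and 12, and ENSG00000247556.2 on chromosome 15 with 21, 18 and 11, tied in their summed difference of 4. The lists do not pair these IDs with names. Likeness here rests on 3 counts over 2 libraries.

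TOP2A encodes DNA topoisomerase II alpha, the enzyme that untangles sister DNA molecules before they part. Its ID had 17 peaks in replicate 1 and 12 in replicate 2 on the minus strand of chromosome 17, between 38545066 and 38572677, and 5 were reproducible. The strongest lay at the 3' end of the span, at 38545075 to 38545153, with tallies of 16 and 14. The leading TOP2A site was the same in both libraries, and only 8.51% of all reproducible pairs had a lower tally of 14 or more. The site next to it, at 38545482 to 38545516, had tallies of 6 and 3. The other reproducible sites lay 11.1, 16.0 and 23.0 kb from the 3' end in replicate 1, with tallies of 6, 3 and 3 there and of 6, 6 and 4 in replicate 2.

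TOP2A had many close misses. Of its 12 unshared peaks in replicate 1, 5 lay within 100 nt of a replicate 2 peak, and of 7 in replicate 2, 4 lay that near a replicate 1 peak, beside 12.7% and 12.9% of all unshared peaks. Those shares were not matched for how densely a gene's peaks lie. The replicate 1 peaks at 38569080 to 38569086 and 38569087 to 38569106 touched, and the same replicate 2 peak, at 38569187 to 38569224, was nearest to both. A replicate 1 peak at 38569830 to 38569868 and a replicate 2 peak at 38569870 to 38569877 were separated by 1 nt. The peak at 38551714 to 38551771, with a tally of 8 in replicate 1, was the strongest without a partner, and the nearest replicate 2 peak lay 2777 nt away. With peaks of the other library extended by 100 nt, 9 TOP2A peaks of replicate 1 counted as shared. A reciprocal overlap of 50% left 2, and the strongest 10% of each list left 1.

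CENPF and CENPE encode large proteins of the kinetochore, the structure that ties chromosomes to spindle microtubules, and CENPE is itself a motor. CENPF had 10 peaks in replicate 1 and 8 in replicate 2 on the plus strand of chromosome 1, between 214795560 and 214837556. Its 3 reproducible peaks all lay in the last 359 nt of the span and were the strongest CENPF peaks of replicate 1. The peak at 214837198 to 214837254 had tallies of 15 and 12, the peak at 214837270 to 214837341 had 19 and 13, and the peak at 214837502 to 214837556 had 11 and 7. Replicate 2 added an unshared peak with a tally of 8 just before them, at 214836937 to 214836983. Elsewhere along CENPF, 7 peaks of replicate 1 with tallies of at most 5 and 4 other peaks of replicate 2 met no partner. The 3' cluster held 62.5% of the CENPF tally in replicate 1, and its shared peaks held 60.4% in replicate 2. The share of tally held by shared peaks was not computed over all genes.

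CENPE differed from CENPF in having peaks in replicate 1 alone. Its 6 peaks, on the minus strand of chromosome 4 between 104026970 and 104102576, each had the lowest tally of 3 and deposited p-values, the authors' own, from 0.0197 to 0.0241. Of 351 gene IDs with exactly 6 peaks in replicate 1, whatever their tallies, 1.42% had none in replicate 2. That share was not matched for tally. At the share of other genes' peaks of equal tally, 0.7 of the 6 CENPE peaks would have been shared. The CENPE peaks were narrow, with a median of 16.5 nt beside 42 nt over the list, and 2 of them touched end to end, at 104063032 to 104063039 and 104063040 to 104063064. Each CENPE peak thus had the smallest tally found in these lists.

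The spindle genes had fewer peaks than MKI67, TOP2A and CENPF. KIF11, the motor that pushes spindle poles apart, had 6 peaks in replicate 1 and 5 in replicate 2 on the plus strand of chromosome 10. Of these, 5 and 4 lay in the last 1.62 kb of the 49.0 kb span, and both reproducible peaks were there. The site at 94414160 to 94414176 had a tally of 4 in each library, and the site at 94414596 to 94414634 had 7 in each. The stretch also held peaks of a single library. Unshared peaks with tallies of 8 and 7 in replicate 1, at 94413948 to 94413997 and 94415013 to 94415061, lay 152 and 177 nt from the nearest replicate 2 peak, and a replicate 2 peak with a tally of 7, at 94414799 to 94414835, lay 164 nt from the nearest replicate 1 peak. Unshared KIF11 peaks were thus as strong as shared ones, with a median tally of 6 in each library beside 5.5 for the shared.

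NUSAP1, a microtubule-binding protein of the spindle, had all its peaks within 492 nt on the plus strand of chromosome 15. Replicate 1 listed 3 there, with tallies of 5, 8 and 8. The middle of these, at 41672497 to 41672554, met the only replicate 2 peak, which had a tally of 4. TPX2, which activates the Aurora A kinase at the spindle, had 3 peaks in replicate 1 and 1 in replicate 2 on the plus strand of chromosome 20, none of them shared. Its strongest peaks in the libraries, with a tally of 5 at 30389356 to 30389424 and of 6 at 30389170 to 30389229, lay 126 nt apart. Of 898 gene IDs with exactly 3 replicate 1 peaks, 39.2% had no reproducible peak, so this state was common.

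ASPM encodes a spindle-pole protein. It had 4 peaks in each library on the minus strand of chromosome 1, between 197060074 and 197112534. The only reproducible one, at 197112468 to 197112534, was the 5'-most peak of the span, 52.4 kb from the 3' end, with tallies of 5 and 3. The 2 inner centres lay 31 nt apart, the most among the 27 member pairs. Replicate 2 had 2 touching peaks nearby, at 197112007 to 197112013 and 197112014 to 197112036, each with a tally of 3. With a reciprocal overlap of 50%, ASPM had 0 reproducible peaks.

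ANLN encodes anillin, the scaffold of the contractile ring that divides the cell. Replicate 1 listed 5 ANLN peaks on the plus strand of chromosome 7, 4 of them within the last 458 nt of the span, with tallies of 6, 8, 5 and 5 toward the 3' end. Replicate 2 listed a single peak in this stretch, with a tally of 5, and it met the first of the 4, at 36492497 to 36492553. The strongest, with a tally of 8 at 36492627 to 36492691, lay 64 nt from it and had no partner. CCNB1 encodes cyclin B1, the partner of the kinase that drives entry into mitosis. Its single replicate 1 peak, at 68473415 to 68473476 of chromosome 5 on the plus strand, had a tally of 5 and met a replicate 2 peak with a tally of 4. This site was the 3'-most of the CCNB1 peaks, and replicate 2 listed 2 further peaks, with tallies of 3 and 5, that lay 8.95 and 2.21 kb from the 3' end.

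**Figure D4:**
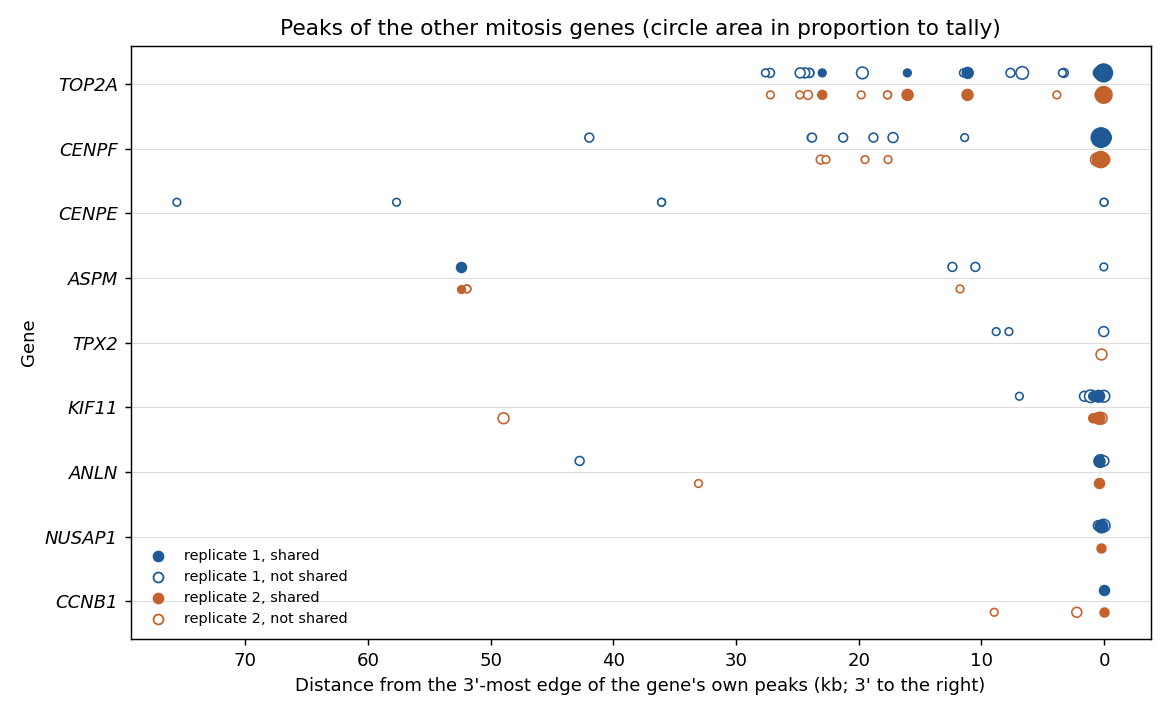
Peaks of the 9 other mitosis genes by distance in kb from the 3'-most edge of each gene's own peaks (x axis, 3' to the right), with circle area in proportion to tally, replicate 1 in blue above and replicate 2 in orange below each line. Filled circles, the shared peaks, sit at the 3' end for CENPF, KIF11, ANLN and CCNB1, are spread along TOP2A, and lie at the 5' end for ASPM. A shared peak itself sets the 3' end for CENPF, CCNB1 and TOP2A, and the 5' end for ASPM.

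The 27 sites fell into different layouts along the spans of the peaks. Among the 7 members whose peaks span 10 kb or more, 11 of 25 reproducible peaks, or 44.0% (95% Wilson interval 26.7% to 62.9%), fell within the final 10% of the span toward the 3' end, beside 54.6% over all such genes. Taking the shared peaks of replicate 2 gave 11 of 25 as well, beside 54.4%. MKI67 had 3 of 13 there, or 23.1%, and the other members had 8 of 12, or 66.7% (39.1% to 86.2%). CENPF, KIF11 and ANLN had each of their reproducible peaks in that part, TOP2A had 2 of 5, and ASPM had 0 of 1. Spans were measured between peaks and not between annotated gene ends, so isolated peaks far upstream, as for MKI67, CENPF, KIF11 and ANLN, set the scale. A shared peak itself set the 3' end for TOP2A and CENPF, and the 5' end for ASPM.

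Across the 27 pairs the tallies of the libraries ran together. Spearman's rho was 0.67 and Pearson's r of the log2 tallies was 0.69, beside 0.60 and 0.68 over all 9246 pairs. These are descriptions over sites that share genes and libraries. The tally was higher in replicate 1 in 13 pairs (48.1%), equal in 9 and higher in replicate 2 in 5. Over all 9246 pairs it was higher in replicate 1 in 5115 (55.3%), equal in 1363 and higher in replicate 2 in 2768. Of the 27 pairs, 25 lay within 2-fold, beside 85.3% of all pairs. Both exceptions were in MKI67, with 25 against 6 and 7 against 3. Of all peaks, 13.2% in replicate 1 and 9.53% in replicate 2 had a tally of 10 or more. Among the members, 7 peaks of 76 in replicate 1 and 4 of 56 in replicate 2 did, and they belonged to MKI67, TOP2A and CENPF alone.

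**Figure D5:**
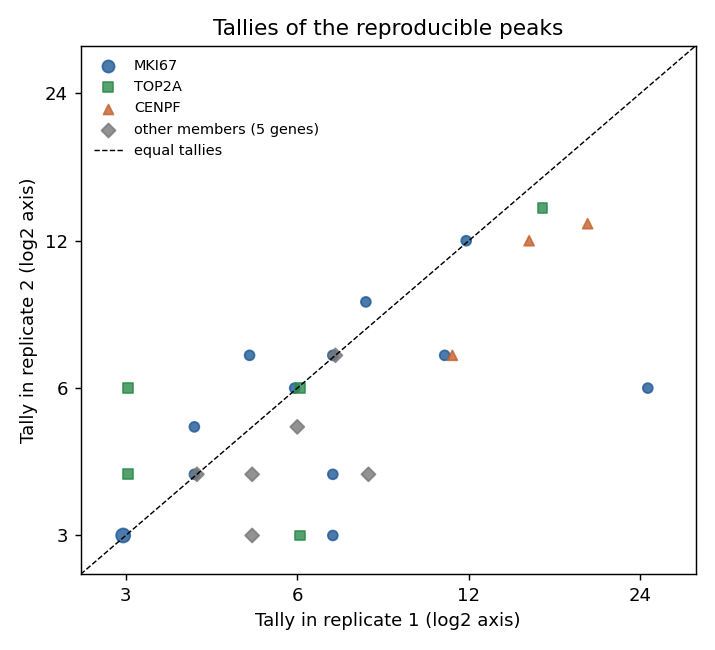
Tally of each of the 27 reproducible member peaks in replicate 1 (x axis) and replicate 2 (y axis) on log2 axes, with symbols for MKI67, TOP2A, CENPF and 5 other members, larger symbols where sites of a gene coincide, slight sideways shifts so that symbols of different genes can be seen, and a dashed line at equal tallies. CENPF lies below the line, where replicate 1 is higher, at each of its 3 sites, and the MKI67 site with 25 against 6 lies farthest from it. Of all 9246 reproducible pairs, 55.3% had the higher tally in replicate 1.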

How the data were processed

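MSI2 was profiled by CLIP-seq in NB4 cells, 1 group of 2 libraries. The submitters' processing notes name STAR 2.3.0e, Bowtie 1.0.0, cutadapt and build hg19. Poly(A) and adapter trimming and removal of duplicates are recorded in the deposited lists' names. Peaks were listed per library. No peak caller was named in the labels or headers. The authors gave every peak a p-value, deposited without stating any correction. The tally is another number deposited in the peak name, which no header explains. Positions are printed 1-based.

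The members and lists were chosen with earlier results of these data known, and no test was run. Sharing needed 1 nt of overlap on the same strand. Expected numbers at equal tally used the shares of all non-member peaks at each tally, with tallies of 10 to 14, 15 to 19 and 20 or more grouped. Every peak of each member was used, and all reproducible peaks of MKI67 and up to 3 of each other member with the highest tally were to be named. Every reproducible peak of each is given, also the remaining TOP2A sites. Lists of other mitosis genes and of cell markers were prepared by symbol but were not analysed here, because the gene table used does not pair symbols with Ensembl IDs. Overlap rules were tested on simulated data. Calculations used matplotlib 3.10.9, SciPy 1.17.1, pandas 2.3.3, NumPy 2.4.6 and Python 3.11.15.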

Additional observations from a re-analysis of the deposited data

How the results depend on the processing

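No paired analysis was possible because there is 1 group. Of 38 recomputed values of the main results, 28 stayed within the margin set for them (the Wilson interval for a share, 1.5 times for a count), and 40 of 54 values for single members did. A reciprocal overlap of 50% lowered the share of member peaks to 25.0% in replicate 1 and 33.9% in replicate 2, beside 26.8% and 27.5% over all peaks. The stronger 50% of each list by p left a mean of 35 member peaks per replicate, 16 reproducible peaks over the members and 7 for MKI67, fewer by construction. The share of member peaks was then 39.0% in replicate 1 and 55.2% in replicate 2, beside 44.5% and 46.3% over all peaks. The strongest 10% left 6 and 4 member peaks, of which 50% and 75.0% were shared (55.1% and 57.1% over all peaks), 3 reproducible peaks over 2 members (CENPF and TOP2A) and 0 for MKI67. The count of MKI67 sites therefore rests on peaks outside the strongest 10% in at least 1 library. Without replicate 1 and without replicate 2, the number of member peaks was 56 and 76. Midpoints within 50 nt, extension by 100 nt and merging within 50 nt gave 29, 35 and 26 reproducible member peaks. The share of reproducible peaks in the 3'-most part was 44.0% with replicate 2 positions (54.4% over all genes), 44.0% in the final 20% of the span (63.8%), and 43.5% without the peaks that set the ends (51.8%). With the stronger 50% by p it was 57.1%, 8 of 14 peaks, beside 55.7%, so the members then lay at about the level of all genes. Without total read numbers, low tallies limit what can be said of genes with few peaks.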
